A study of Mus musculus with 4 samples.

Results

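Lymphoid-primed progenitors are early blood progenitors that have begun to transcribe genes of the lymphoid lineages. They were chosen by measured levels, as cells of the KIT+ lineage-negative bone marrow with at least 3070 unique molecular identifiers (UMIs, counted RNA molecules), at least 1 UMI of Dntt and at least 1 UMI of Flt3. Such cells also had to hold UMIs of fewer than 3 of 8 genes of blood stem cells, namely Hlf, Mecom, Procr, Ly6a, Pdzk1ip1, Fgd5, Hoxb5 and Slamf1. Of the 11764 cells of the series, 687 met the rule. The levels of Dntt, Flt3 and the 8 stem cell genes chose these cells and are given as descriptions only.

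The study profiled normal blood progenitors of mice inside and outside a marrow with B-cell acute lymphoblastic leukemia (B-ALL) by droplet RNA sequencing from the 3' end. In the tumor environment group, 150000 tumor cells from a lymph node of a leukemic CD45.2 mouse of genotype Ebf1+/-Pax5+/- were injected into the tail vein of each Wt CD45.1 host. In the PBS control group, Wt CD45.1 hosts were given phosphate-buffered saline instead. After 3 weeks, KIT+Lin-CD45.2-CD45.1+ cells of the marrow were sorted, so cells of both groups were host cells by their CD45 type. There are 2 labelled samples in each group, and a cell can be traced to its group but not to a sample, so each group counted as 1 sample. With 1 sample a group there was no test between groups. Intervals are exact 95% intervals that cover counting error only, and differences between animals or libraries of a group are not in them.

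Dntt encodes terminal deoxynucleotidyl transferase, which adds bases at the joints of antigen receptor genes. Flt3 is the receptor of FLT3 ligand, a growth factor of multipotent and lymphoid progenitors. Progenitors with both genes can still give rise to granulocytes and monocytes, and those that go on to the lymphoid lineages switch on Il7r, the receptor chain for interleukin 7, before the first B and T lineage genes.

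Lymphoid-primed cells were fewer in the tumor environment. They were 263 of 5692 cells (4.62%, 4.09 to 5.20) in the tumor environment and 424 of 5882 cells (7.21%, 6.56 to 7.90) in the PBS control, a ratio of 0.641 (0.547 to 0.749). The ratio was nearer to 1 without the limit on stem cell genes. There, cells with Dntt and Flt3 were 395 (6.94%, 6.29 to 7.63) in the tumor environment and 497 (8.45%, 7.75 to 9.19) in the PBS control, a ratio of 0.821 (0.718 to 0.939). The limit left out 132 of these cells (33.4%) in the tumor environment and 73 (14.7%) in the PBS control. Cells with Dntt, Flt3 and none of the 8 stem cell genes numbered 52 (13.2% of Dntt and Flt3 cells) in the tumor environment and 153 (30.8%) in the PBS control. The shares are of sorted cells, so they also depend on how many other cells were sorted. Erythroid cells, taken as cells with UMIs of at least 3 of 6 erythroid genes, were 2.76% of cells in the tumor environment and 19.1% in the PBS control. With such cells left out of numerator and denominator, the ratio was 0.546.

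On the map deposited by the authors the lymphoid-primed cells formed 1 main patch at the edge of the Flt3 cells that lacked Dntt. Of the 50 nearest cells on the map, 46.7% were lymphoid-primed around such a cell of the tumor environment and 42.6% around one of the PBS control, against 5.94% over all cells. A core of 129 cells in the tumor environment and 187 in the PBS control lay where 50% or more of the 50 nearest cells were lymphoid-primed. Only 8 cells in the tumor environment and 18 in the PBS control had 0 lymphoid-primed neighbours. A small group lay apart from the rest of the map, with 23 cells of the tumor environment and 21 of the PBS control. It held 6 lymphoid-primed cells in the tumor environment and 1 in the PBS control. Ranked by the log2 ratio of CPM with 10 CPM added to both sides, the genes that led it were Trbc1, at 1954 CPM against 4.27 CPM in the other lymphoid-primed cells, and Tcf7, at 1353 CPM against 3.14 CPM. CPM is a gene's share of the summed UMIs of a population, scaled to a fixed total. Trbc1 is a constant segment of the T cell receptor beta chain and Tcf7 a transcription factor of T and innate lymphoid cells, and the group was left without a cell type name.

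**Figure D1:**
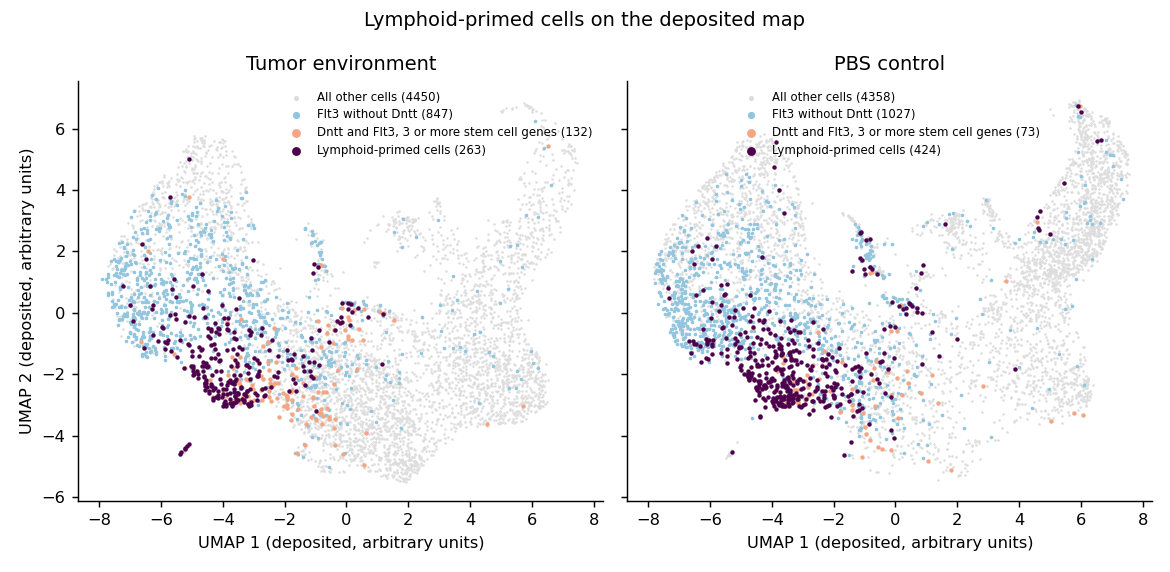
Lymphoid-primed cells (dark), Dntt and Flt3 cells with 3 or more stem cell genes (orange), Flt3 cells without Dntt (light blue) and all other cells (grey) on the 2 axes of the deposited map, in arbitrary units, for the tumor environment (left) and the PBS control (right). The main patch is shared, the small group with T lineage genes lies at the lower left, and the dark cells at the upper right are found in the PBS control.

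Lymphoid-primed cells had a median of 9981 UMIs and 3871 genes in the tumor environment and of 9884 UMIs and 3790 genes in the PBS control, and their UMIs summed to 3217595 and 4798855 in the same order of groups. Mitochondrially encoded genes took 5.81% of these UMIs in the tumor environment and 3.98% in the PBS control, against 5.10% and 3.53% in all other cells. In the tumor environment 190 cells fell below 3070 UMIs, of which 3 met the rest of the rule, and in the PBS control 0 did. Barcodes shared between the groups numbered 18, and 3 lymphoid-primed cells carried one.

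Lymphoid genes that the rule had not used were found in many of the cells. Satb1, a chromatin organizer of early lymphoid cells, had a UMI in 59.7% of lymphoid-primed cells (53.5 to 65.7) in the tumor environment and in 52.1% (47.2 to 57.0) in the PBS control, after every cell was thinned to 3070 UMIs. The share in erythroid cells, which should lack it, was 0% of 157 cells in the tumor environment and 2.50% of 1122 cells in the PBS control, at median depths before thinning of 17743 and 11374 UMIs. Il12a, which encodes a subunit of interleukin 12, had a UMI in 30.0% and 34.2% of lymphoid-primed cells, and Il7r in 8.75% and 5.66%, tumor environment before PBS control. Enrichment in lymphoid-primed over all other cells was ranked by the lower of the groups, among genes averaging 20 CPM or more. The 10 highest were Dntt, Arpp21, Cox6a2, Wfdc17, Cmah, Il7r, Flt3, Sstr2, Il12a and Slc16a11. Dntt and Flt3 are there through the rule, which chose cells that hold them. Arpp21, an RNA-binding protein gene, was at 31.8 CPM in the tumor environment and 36.6 CPM in the PBS control, against 1.02 and 1.47 CPM in all other cells. Igll1 and Vpreb1, which encode the surrogate light chain of B cell precursors, were at background. At that depth Vpreb1 had a UMI in 0.380% of lymphoid-primed cells in the tumor environment and 0.708% in the PBS control, against 0% and 2.50% of erythroid cells, and Igll1 in 0.380% and 0%. Igkc, the kappa light chain of mature B cells, had a UMI in 1 of 263 lymphoid-primed cells in the tumor environment and in 0 of 424 in the PBS control after thinning, where the exact upper limit is 0.866%. Before thinning the shares of cells with an Igkc UMI were 1.90% in the tumor environment and 0% in the PBS control.

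**Figure D2:**
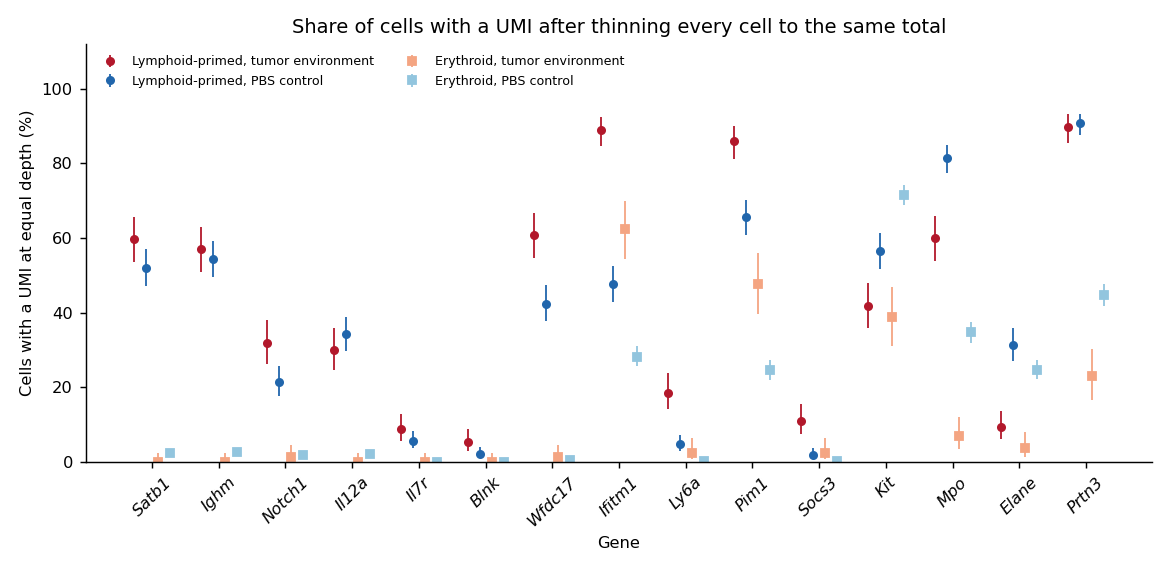
Share of cells with a UMI (percent, vertical axis) of 15 genes (horizontal axis) after every cell was thinned to the same total, with exact 95% intervals, for lymphoid-primed cells (circles) and erythroid cells (squares) of the tumor environment (red and orange) and the PBS control (dark and light blue). Satb1, Ighm and Il7r are near 0 in erythroid cells, while Mpo, Elane and Prtn3 are not, least of all in the PBS control.

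Dntt was at 683 and 607 CPM in lymphoid-primed cells with 2 stem cell genes, tumor environment before PBS control, and at 771 and 698 in the cells left out with 3. At the other edge, lymphoid-primed cells with a single Dntt UMI had 245 and 149 CPM of Satb1, and Flt3 cells without Dntt had 105 and 92.8.

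Gene levels were compared on UMIs summed over the lymphoid-primed cells of each group, as CPM after TMM scaling, which evens out library composition. Across 8789 genes averaging 10 CPM or more, 258 were over 1.5-fold higher in the tumor environment (2.94% of genes). Another 267 were over 1.5-fold lower (3.04%), 5.97% in either direction. The counts within gene lists given below are to be read beside these shares. In all other cells 359 of 8776 genes passed upward (4.09%) and 260 downward (2.96%), 7.05% in all. In Flt3 cells without Dntt the shares were 1.26% upward and 1.74% downward (3.01% in all), and in Dntt and Flt3 cells with 3 or more stem cell genes, where the sums are smallest, 9.20% and 6.68% (15.9% in all). Where a level is lower in such a sum, fewer cells that hold a gene and less RNA per cell cannot be told apart, unless the share of cells with a UMI is given.

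Of the lymphoid priming genes, 5 of the 20 compared were over 1.5-fold higher in the tumor environment and 0 were lower. Over all genes compared, 2.94% were higher and 3.04% lower. The list had a median log2 fold of 0.32, against 0.00 over all genes and 0.23 for the same list in all other cells. It includes Dntt and Flt3, genes of the rule, whose levels are descriptions only. The 5 were Il7r, Blnk, Notch1, Bcl11a and Lax1, the last with an interval that spans 0 (-0.02 to 1.26), and 27 genes were listed, of which 23 were in the matrix. Il7r was at 61.4 CPM in the tumor environment and 21.6 CPM in the PBS control, a log2 fold of 1.51 (1.16 to 1.86), against 0.50 in all other cells. Cells with an Il7r UMI were 39 of 263 in the tumor environment and 44 of 424 in the PBS control, with 5.05 and 2.36 UMIs in each such cell on average. The amount per positive cell thus differed more than the share of positive cells, and the shares at equal depth had overlapping intervals (5.62 to 12.8% and 3.66 to 8.31%). Of the 197 Il7r UMIs in the tumor environment 47 came from the 6 cells of the small group apart on the map, and of the 104 in the PBS control 3 did. Without that group the log2 fold of Il7r was 1.17 (0.79 to 1.55), within the core of the patch 1.03 (0.65 to 1.42), and among cells with at least 10000 UMIs 0.54.

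Blnk, the B cell linker that carries the signal of the pre-B receptor, was at 21.8 CPM in the tumor environment and 5.40 CPM in the PBS control, a log2 fold of 2.01 (1.35 to 2.72). It had a UMI in 41 cells in the tumor environment and 22 in the PBS control. Notch1, the receptor that directs progenitors to the T lineage, was at 138 CPM in the tumor environment and 89.99 CPM in the PBS control, a log2 fold of 0.61 (0.42 to 0.81), and 0.57, short of 1.5-fold, within the core of the patch, and had a UMI in 31.9% (26.3 to 37.9) and 21.5% (17.6 to 25.7) of cells at equal depth. Bcl11a, a transcription factor needed for lymphoid development, was at 367 CPM in the tumor environment and 235 CPM in the PBS control, a log2 fold of 0.65 (0.53 to 0.77), while its log2 fold was 0.51 in Dntt and Flt3 cells with 3 or more stem cell genes, 0.29 in Flt3 cells without Dntt and 0.05 in all other cells. Its transcripts were also common in erythroid cells, with a UMI in 59.3% and 48.6% of lymphoid-primed cells and 71.3% and 71.7% of erythroid cells. Satb1 stayed under the threshold, at 339 CPM in the tumor environment and 241 CPM in the PBS control (log2 fold 0.49, 0.37 to 0.62), with 0.07 in all other cells. Ighm, the heavy chain locus whose transcripts appear before rearrangement, was at 385 and 306 CPM in the same order (0.33, 0.22 to 0.44). Its log2 fold was -0.73 in Dntt and Flt3 cells with 3 or more stem cell genes, -0.11 in Flt3 cells without Dntt and 0.17 in all other cells. Over the alternative settings it ranged from -0.03 to 0.46.

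Mef2c, a transcription factor of lymphoid progenitors, was at 540 CPM in the tumor environment and 715 CPM in the PBS control (log2 fold -0.40, -0.49 to -0.32), and Il12a at 114 and 151 CPM (-0.41, -0.59 to -0.22). Of the receptor rearrangement genes, 0 of 10 passed 1.5-fold, with a median of -0.01. They include Dntt, a gene of the rule, which was at 719 CPM in the tumor environment and 678 CPM in the PBS control. Rag2, a subunit of the recombinase, was at 12.2 and 15.8 CPM (-0.38, -0.97 to 0.20). Among 19 lymphoid transcription factors, Bcl11a, Tcf7 and Gfi1 were over 1.5-fold higher and 0 lower, with a median of 0.29. All 52 Tcf7 UMIs of the tumor environment came from the small group of cells apart on the map, as did 25 of the 50 of the PBS control, which leaves 0 UMIs in the tumor environment and 25 in the PBS control outside that group.

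**Figure D3:**
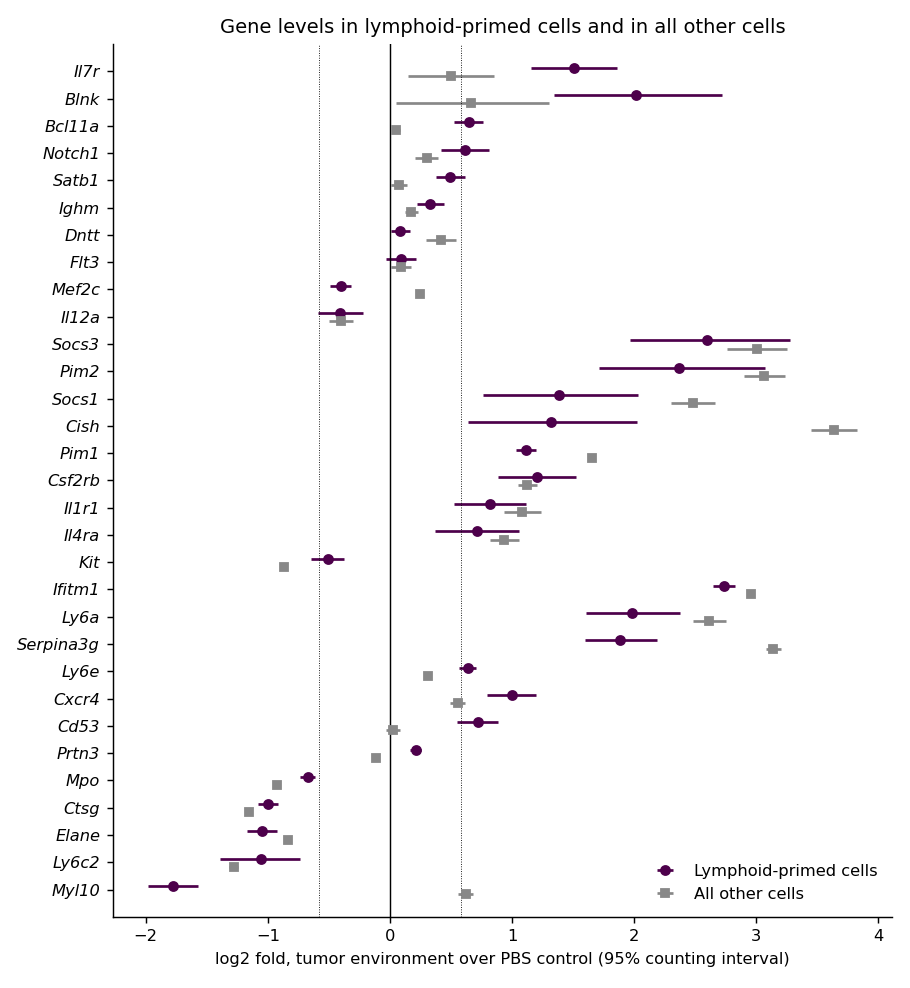
Log2 fold of 31 genes (vertical axis), tumor environment over PBS control (horizontal axis), in lymphoid-primed cells (circles) and all other cells (squares), with 95% counting intervals; dotted lines mark 1.5-fold. Bcl11a, Satb1 and Cd53 lie near 0 in all other cells as 1 sum. The cytokine feedback and interferon genes shown, all from those over 1.5-fold higher in lymphoid-primed cells, are higher in both populations. Myl10 is lower in lymphoid-primed cells and higher in all other cells as 1 sum.

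Of 17 genes compared from a list of cytokine feedback genes and other regulators of cytokine signals, 5 were over 1.5-fold higher in the tumor environment and 0 were lower. The median log2 fold was 0.10, against 0.11 in all other cells. Cish, Socs1 and Socs3 encode proteins that shut down receptor-bound JAK kinases, and Pim1 and Pim2 encode survival kinases that STAT factors induce. Pim1 was at 937 CPM in the tumor environment and 432 CPM in the PBS control, a log2 fold of 1.12 (1.04 to 1.20). Per cell, the median level of Pim1 was 8.51 UMIs per 10000 in the tumor environment and 3.46 in the PBS control, and the highest decile began at 23.6 in the tumor environment and 12.5 in the PBS control. Socs3 was at 32.7 CPM in the tumor environment and 5.40 CPM in the PBS control, a log2 fold of 2.60 (1.97 to 3.28), and had a UMI in 11.0% (7.51 to 15.5) and 1.89% (0.818 to 3.68) of cells at equal depth. Pim2 was at 26.8 CPM in the tumor environment and 5.20 CPM in the PBS control (2.37, 1.71 to 3.07), and Socs1 at 19.0 and 7.27 CPM (1.39, 0.76 to 2.03). Cish was at 15.6 and 6.23 CPM (1.32, 0.64 to 2.03), but within the core of the patch at 11.1 and 11.8 CPM, a log2 fold of -0.09 (-1.11 to 0.91). The log2 folds of all 5 were larger in all other cells, 1.65 for Pim1, 3.00 for Socs3, 3.06 for Pim2, 2.48 for Socs1 and 3.63 for Cish.

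STAT factors bind the palindromic motif TTCNNNGAA, and the promoters of 2 of these 5 genes hold it. The windows searched, from RefSeq on GRCm38.p6, run from 250 bases before to 50 bases after each annotated start, and the motif reads alike on both strands. It was in 8.30% of the 32851 windows. The windows of Cish (chr9:107296409-107296708, plus strand) and Socs3 (chr11:117969317-117969616, minus strand) are shown 5′ to 3′ with the motif in capitals, since of the 5 genes searched these had a match.
Cish: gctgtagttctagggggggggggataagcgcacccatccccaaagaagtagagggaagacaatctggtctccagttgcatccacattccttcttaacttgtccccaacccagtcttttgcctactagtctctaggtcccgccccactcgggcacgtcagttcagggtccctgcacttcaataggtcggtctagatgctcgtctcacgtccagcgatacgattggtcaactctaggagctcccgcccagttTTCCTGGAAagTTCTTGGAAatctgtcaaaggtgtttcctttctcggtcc
Socs3: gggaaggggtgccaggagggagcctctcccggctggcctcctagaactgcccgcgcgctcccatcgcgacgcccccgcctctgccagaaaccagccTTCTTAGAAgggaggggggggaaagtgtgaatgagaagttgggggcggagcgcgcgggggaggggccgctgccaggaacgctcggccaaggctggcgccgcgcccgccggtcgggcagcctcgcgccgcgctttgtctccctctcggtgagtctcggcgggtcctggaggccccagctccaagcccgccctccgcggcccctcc
The 2 matches of Cish do not overlap and begin at the annotated start and 11 bases after it, and the match of Socs3 begins 154 bases before the start. The windows of Pim1, Pim2 and Socs1 held none of these letters in that order. A match describes the sequence and was not measured as a bound site.

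Cytokine receptors and their kinases had 8 of 35 genes over 1.5-fold higher and 0 lower, where 2.94% of all genes compared were higher. The median of the list was 0.09, against -0.04 in all other cells. Csf2rb, the shared beta chain of the receptors for interleukin 3, interleukin 5 and GM-CSF, was at 65.1 CPM in the tumor environment and 28.3 CPM in the PBS control (log2 fold 1.20, 0.89 to 1.53). Il1r1, the interleukin 1 receptor, was at 65.1 and 37.0 CPM (0.82, 0.52 to 1.11), and Il4ra, a chain of the interleukin 4 receptor, at 47.7 and 29.1 CPM (0.71, 0.37 to 1.05). In all other cells the log2 folds of Csf2rb, Il1r1 and Il4ra were 1.12, 1.08 and 0.94. The other 5 that passed in lymphoid-primed cells were Il7r, Il27ra, Jak3, Il10ra and Ifngr2. Their log2 folds in all other cells were 0.50, 0.94, 0.64, 0.29 and -0.08. Kit, the receptor used for the sort, was lower, at 204 CPM in the tumor environment and 291 CPM in the PBS control (-0.51, -0.65 to -0.38), short of 1.5-fold. It had a UMI in 41.8% (35.8 to 48.0) and 56.6% (51.7 to 61.4) of cells at equal depth. Its log2 fold was -0.87 in all other cells and -0.69 in Flt3 cells without Dntt. In Dntt and Flt3 cells with 3 or more stem cell genes it was -0.61. Flt3, fixed to at least 1 UMI by the rule, was at 302 and 284 CPM.

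Of 32 interferon response genes compared, 6 were over 1.5-fold higher and 1, Isg20, was lower. The median was 0.17, against 0.23 in all other cells. The 6 include Ly6a, a gene of the rule, whose level is a description only. Ifitm1, a membrane protein induced by interferons, was at 1718 CPM in the tumor environment and 259 CPM in the PBS control, a log2 fold of 2.73 (2.64 to 2.82), the highest among genes of at least 20 CPM. It differed across the whole population of cells, with a median of 16.5 UMIs per 10000 in the tumor environment and 1.71 in the PBS control, and a 10th percentile of 2.35 in the tumor environment that lay above that control median. Ly6a, which encodes SCA-1 and is both interferon-inducible and a gene of the rule, was at 65.8 and 16.6 CPM (1.98, 1.61 to 2.37). The limit on stem cell genes sets no ceiling on its level but affects which cells with Ly6a were kept. Serpina3g, a protease inhibitor, was at 105 and 28.5 CPM (1.89, 1.60 to 2.18), less than its log2 fold of 3.14 in all other cells. Ly6e was at 1192 and 768 CPM (0.64, 0.57 to 0.70). Gbp2 and Ifitm3 were the others that passed, and Ifitm3 was at 0.32 within the core of the patch, short of 1.5-fold. Isg15, a target of type I interferon, was at 19.3 CPM in the tumor environment and 18.1 CPM in the PBS control (0.10) and did not pass 1.5-fold. In MHC class I presentation, 0 of 22 genes were over 1.5-fold higher and 1, the peptide transporter Tap2, was lower, at 152 CPM in the tumor environment and 231 CPM in the PBS control (-0.60, -0.75 to -0.44). Ifitm genes are close copies of each other, and the way reads shared between them were counted is not given in the sources used here.

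The other high folds were of varied genes. S100a4, a calcium-binding protein, was at 42.1 CPM in the tumor environment and 7.90 CPM in the PBS control (log2 fold 2.41), Ffar2, a receptor for short-chain fatty acids, at 104 and 19.95 CPM (2.38), and Mycn, a transcription factor of the MYC family, at 33.7 and 8.11 CPM (2.05). Ahnak (1.963), Selp (1.69), Clec2i (1.55), Gm34680 (1.53) and Sstr2 (1.49) completed the 12 highest among genes averaging 20 CPM or more. The log2 folds of Ffar2 and Clec2i were larger than the 1.54 and 0.28 of all other cells, with counting intervals of the gaps of 0.50 to 1.18 and 0.84 to 1.70, and those of S100a4 and Mycn were smaller than 3.11 and 2.63, with gaps of -1.24 to -0.15 and -1.12 to -0.04. In Dntt and Flt3 cells with 3 or more stem cell genes, Ffar2 was at 2.42 and Clec2i at 1.06. Of the TNF and NF-kB response genes, 7 of 20 were over 1.5-fold higher and 1 lower, where 2.94% of all genes compared were higher. The median of the list was 0.30, against 0.37 in all other cells. Bcl3, an atypical IkB protein, was at 27.1 and 4.78 CPM (2.50, 1.83 to 3.23), and Ier3 at 63.9 and 31.4 CPM (1.03, 0.72 to 1.34). Ccl5, also on that list, had 94.1% of its UMIs in 5 cells in the tumor environment and 83.1% in 5 in the PBS control, and its log2 fold was 1.37 over all and -0.03 within the core of the patch. Tnfaip2 was lower, at 13.4 and 43.4 CPM (-1.70).

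Cxcr4, the receptor that holds progenitors in the marrow, was at 148 CPM in the tumor environment and 74.4 CPM in the PBS control (1.00, 0.79 to 1.20), against a log2 fold of 0.55 in all other cells. Cd53, a leukocyte tetraspanin, was at 188 and 114 CPM (0.72, 0.55 to 0.89), against 0.64 in Dntt and Flt3 cells with 3 or more stem cell genes and 0.02 in all other cells. The adhesion molecules Itgal (-0.64) and Icam2 (-0.63) were lower, so 2 of 16 homing genes passed upward and 2 downward. Within the core of the patch Itgal was at -0.43 (-0.92 to 0.06) and Icam2 at -0.36 (-0.83 to 0.10), short of 1.5-fold. Trp53inp1 (1.34, 0.91 to 1.79) and Cdkn1a (0.73, 0.44 to 1.02), both p53 targets, were the 2 of 19 cell death and p53 genes that passed.

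**Figure D4:**
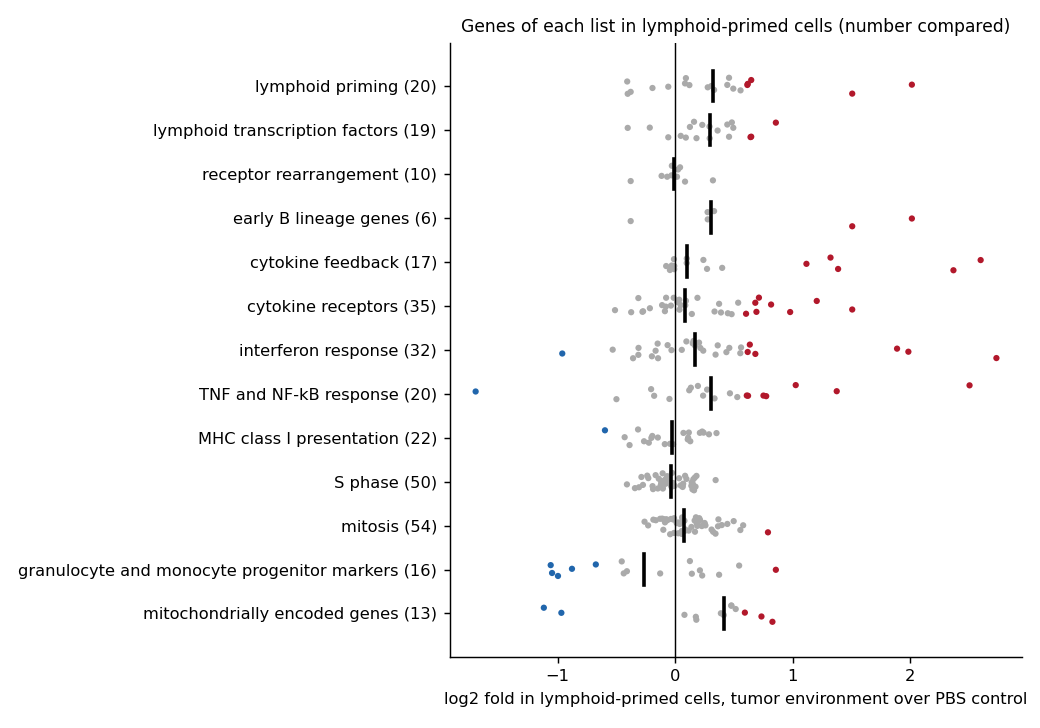
Log2 fold in lymphoid-primed cells, tumor environment over PBS control (horizontal axis), of every compared gene of 13 lists (vertical axis, number compared in parentheses); red and blue points are over 1.5-fold higher and lower, and black bars are medians. S phase, mitosis and receptor rearrangement genes gather around 0.

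Of 50 S phase genes 0 passed 1.5-fold, with a median of -0.04, and of 54 mitosis genes 1 did, Aurka, with a median of 0.08. Replication-dependent histone transcripts were lower. In lymphoid-primed cells 37 of 41 genes named Hist were over 1.5-fold lower, with a median of -1.45, and in all other cells 35 were lower with a median of -1.27. Hist1h4c was at 11.5 CPM in the tumor environment and 77.3 CPM in the PBS control (-2.75, -3.27 to -2.26). These transcripts mostly lack a poly(A) tail, near-identical copies share reads, and 2 other RNAs low in the same way, AY036118 (99.1 and 647 CPM, -2.71) and Tsix (108 and 447 CPM, -2.05), had log2 folds of -2.73 and -1.94 in all other cells. Tsix is antisense to Xist, whose level was 2940 and 2964 CPM, and how strand was handled is not given in the sources used here. The part of library preparation in these differences was not tested. Among the 13 mitochondrially encoded genes, mt-Co3, mt-Cytb and mt-Co2 were over 1.5-fold higher while mt-Nd6 (-1.12) and mt-Atp8 (-0.97) were lower.

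Of 16 granulocyte and monocyte markers compared in lymphoid-primed cells, 5 were over 1.5-fold lower and 1, Gfi1, was higher, with a median of -0.27, against -0.48 in all other cells, and the markers summed to 5819 CPM in the tumor environment and 6757 CPM in the PBS control. Mpo, myeloperoxidase of neutrophil granules, was at 891 CPM in the tumor environment and 1423 CPM in the PBS control (-0.67, -0.74 to -0.61). Ctsg, cathepsin G, was at 508 and 1013 CPM (-0.996, -1.08 to -0.915), and Elane, neutrophil elastase, at 214 and 442 CPM (-1.05, -1.17 to -0.92). Of the Elane UMIs 78.0% in the tumor environment and 49.8% in the PBS control lay in 5 cells, and within the core of the patch Elane was at 14.6 and 110 CPM (-2.92). Ly6c2 (-1.06) and F13a1 (-0.88) were the others. With cells of the groups matched in number within bands of Dntt level, in 1 random draw, Mpo was at -0.48 and Elane at -0.53, short of 1.5-fold. Prtn3, proteinase 3 of the same granules, was not lower, at 1962 CPM in the tumor environment and 1695 CPM in the PBS control (0.21, 0.16 to 0.26).

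At equal depth, 2 or more of Mpo, Elane, Ctsg, Ly6c2 and Csf1r had a UMI in 39.9% of lymphoid-primed cells (34.0 to 46.1) in the tumor environment and in 72.6% (68.1 to 76.8) in the PBS control. In Flt3 cells without Dntt the shares were 74.9% and 90.7%. Of this panel, Mpo, Elane, Ctsg and Ly6c2 are markers over 1.5-fold lower in the tumor environment, so the gap depends on the markers taken. Csf1r, also in the panel, had a UMI in 12.9% of lymphoid-primed cells in the tumor environment and 7.08% in the PBS control. Outside the panel, Prtn3 had a UMI in 89.7% and 90.8% of them, and Irf8 in 40.3% and 50.5%. UMIs of granule genes were also found in erythroid cells, and more so in the PBS control. Mpo had a UMI in 7.01% of erythroid cells in the tumor environment and in 34.8% in the PBS control, where lymphoid-primed cells had 60.1% and 81.4%. Elane had a UMI in 3.82% and 24.8% of erythroid cells and in 9.51% and 31.4% of lymphoid-primed cells. In CPM, Mpo was at 132 in erythroid cells of the tumor environment and 381 in those of the PBS control. The part of such background in the lower granule genes was not tested. The lymphoid counterpart, 2 or more of Satb1, Il12a, Il7r, Notch1, Ighm and Cd79b, was found in 62.4% (56.2 to 68.2) of lymphoid-primed cells in the tumor environment and 58.3% (53.4 to 63.0) in the PBS control.

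Erythroid genes stood out at the low end. Car1, carbonic anhydrase of red cell precursors, was at 1.25 CPM in the tumor environment and 114 CPM in the PBS control (-6.51). Its log2 fold was -2.85 in Flt3 cells without Dntt, -1.07 in Dntt and Flt3 cells with 3 or more stem cell genes and -2.77 in all other cells. At equal depth Car1 had a UMI in 0.380% of lymphoid-primed cells in the tumor environment and 10.1% in the PBS control. Hbb-bs, an adult beta globin, was at 5.92 and 157 CPM (-4.73). In the PBS control 66.9% of Car1 UMIs and 90.1% of Hbb-bs UMIs came from 5 cells. Lymphoid-primed cells with UMIs of at least 3 erythroid genes numbered 0 in the tumor environment and 11 in the PBS control. Tspo2 had 0 UMIs in the tumor environment and 48 in the PBS control, at least 10.7-fold lower with the floor of a group set at 3 UMIs. All 16 erythroid markers together summed to 361 CPM in the tumor environment and 823 CPM in the PBS control, and 6 of the 8 compared were lower. Doublets were not removed, and whether these 11 cells are doublets was not tested. Copies of alpha and beta globin share reads.

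Among lists of other lineages, early B genes had 2 of 6 compared over 1.5-fold higher (Blnk and Il7r). Their median was 0.30, against 0.29 in all other cells, and 11 of the 23 listed were in the matrix. T and NK genes had 2 of 5 (Notch1, and Tcf7 through the small group on the map) with 0.55, against -0.28 in all other cells. Dendritic cell genes had 1 of 6 (Cox6a2) with 0.26, against 0.15 in all other cells. Each of these lists had 0 lower. Cox6a2, a subunit of cytochrome c oxidase listed there as a plasmacytoid dendritic cell gene, was at 47.1 CPM in the tumor environment and 27.2 CPM in the PBS control. MHC class II presentation had 1 of 7, the protease Ctss, at 71.4 and 38.2 CPM. Immediate early genes had 4 of 12 higher, Junb, Ier3, Klf6 and Zfp36, with a median of 0.24, against 0.36 in all other cells. Megakaryocyte, basophil and mast cell, mature B and plasma cell, and macrophage and neutrophil markers had 0 genes past 1.5-fold, of 4, 3, 2 and 2 compared. Of 3 stromal and endothelial markers 1, Pdgfrb, was higher, at 51.1 CPM in the tumor environment and 31.6 CPM in the PBS control.

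Stem cell markers had 1 of 6 genes over 1.5-fold higher, Ly6a, and a median of 0.03, against 0.98 in all other cells. Meis1 was at 128 and 108 CPM (0.25) and Hlf at 115 and 122 CPM (-0.08), while in all other cells their log2 folds were 0.77 and 1.20. The rule kept cells with few of these genes in both groups, so it limits how far they can differ. Cd34, found on most multipotent progenitors, was at 639 CPM in the tumor environment and 690 CPM in the PBS control (-0.11, -0.19 to -0.03), and Angpt1, the gene of angiopoietin 1, at 106 and 182 CPM (-0.78, -0.97 to -0.60).

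Cells differed among themselves along the level of Dntt. Lymphoid-primed cells of both groups were split into 3 bands of equal size by Dntt UMIs per 10000, at 1.98 and 6.69. The highest band held 96 cells of the tumor environment and 133 of the PBS control, the middle 75 and 154, and the lowest 92 and 137. From the lowest through the middle to the highest band, Satb1 was at 224, 334 and 512 CPM in the tumor environment and at 142, 259 and 373 in the PBS control. Notch1 was at 72.9, 118 and 251 in the tumor environment and at 54.5, 76.4 and 165 in the PBS control, and Ighm at 240, 327 and 649 in the tumor environment and at 205, 329 and 438 in the PBS control. Il7r was at 0, 53.7 and 159 in the tumor environment and at 1.56, 15.8 and 61.3 in the PBS control. These genes were thus highest where Dntt was highest in both groups. The gap between the highest and lowest band was ranked by the smaller gap of the groups, among genes averaging 20 CPM or more. Besides Dntt, the largest were those of Cmah, Il7r, Arpp21, Il12a and Smad7, with log2 differences of 1.73 or more. These differences were taken after 10 CPM was added to both sides.

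Granule genes ran the other way. Mpo was at 1464, 652 and 237 CPM from the lowest to the highest band in the tumor environment and at 2069, 1263 and 635 in the PBS control, and Prtn3 at 2765, 1759 and 921 in the tumor environment and at 2407, 1497 and 859 in the PBS control. Mpo was thus lower in the tumor environment in each band, and Elane was at 12.6 CPM in the highest band of the tumor environment against 253 in that of the PBS control. Ifitm1 stayed high in each band of the tumor environment, at 1826, 1909 and 1372, against 298, 264 and 192 in the PBS control. Cells of the lowest band were deeper, with a median of 13807 UMIs in the tumor environment and 13146 in the PBS control, than those of the highest, with 8452 and 8121.

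**Figure D5:**
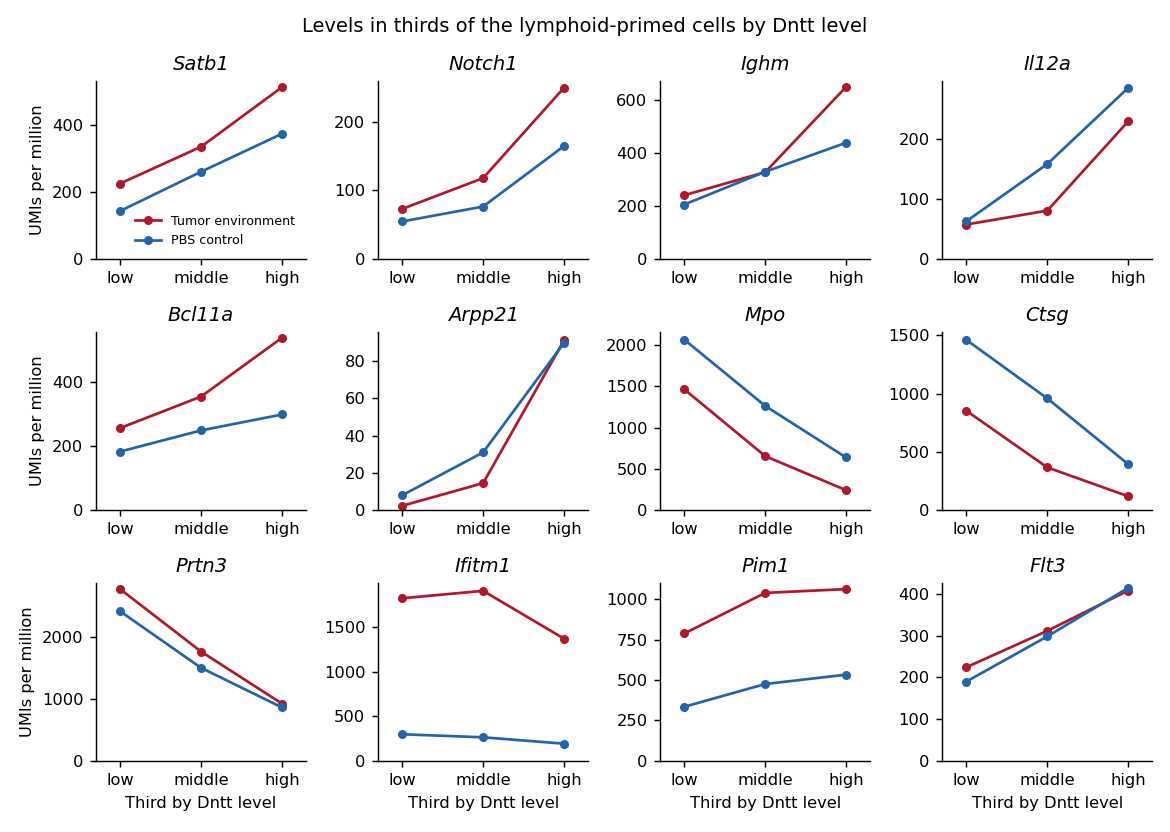
Level (CPM, vertical axes from 0) of 12 genes in the lowest, middle and highest band of lymphoid-primed cells by Dntt level (horizontal axes), in the tumor environment (red) and the PBS control (blue). Lymphoid genes climb and granule genes decline along the bands in both groups, and Ifitm1 and Pim1 are higher in the tumor environment in each band.

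Cells with an Il7r UMI resembled the highest band. Of these, 6 of 39 in the tumor environment and 1 of 44 in the PBS control lay in the small group apart on the map. In both groups cells with an Il7r UMI held more Arpp21, Cmah and Lck than cells without one, with log2 differences of at least 2.21, 2.11 and 1.41. Dntt, a gene of the rule, was also higher, by at least 1.68. Cd63, Ccl9, Ifitm1 and Mpo were lower, by log2 differences of at least -1.48, -1.48, -1.10 and -1.10. As for the bands, 10 CPM was added to both sides before these differences were taken. In cells with an Il7r UMI, whose median depth was 9409 UMIs in the tumor environment and 12212 in the PBS control, Blnk was at 92.6 CPM in the tumor environment and 23.9 in the PBS control, and Irf8, a factor of B and dendritic cell development, at 930 and 457. Ighm was at 745 and 529 there.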

How the data were processed

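The series holds 4 samples, 2 per group, of sorted host marrow cells measured with the 10x Chromium 3' kit, version 3, per the labels. The submitters' processing notes list Cell Ranger 4, Seurat 4.0.1 and the mm10 genome. The deposited matrix holds raw UMI counts of 13978 genes in 11764 cells, 5882 per group, and the authors' cell table adds total UMIs and map coordinates, other values used as deposited. How the authors filtered genes and cells is not given in the sources used here. The prefix tm was read as the tumor environment, and 0 columns were left unused.

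Sums of UMIs over the cells of a population in a group were TMM-scaled with edgeR 4.0.16 in R 4.3.3. Genes needed a mean of at least 10 CPM and a pass of filterByExpr. Folds have exact conditional intervals and shares exact Clopper-Pearson intervals (scipy 1.17.1, numpy 2.4.6, pandas 2.3.3, python 3.11.15). A gene was called past 1.5-fold. DESeq2 1.42.0 gave size factors for an alternative. The code for folds was tested on simulated data. No doublet caller was run and no cell removed. An alternative left out the 5% of cells with the most UMIs. For shares, each cell was thinned to 3070 UMIs with seed 1. Map neighbours used scikit-learn 1.9.0 and figures matplotlib 3.10.9.

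Named genes, of at least 20 CPM, were the 12 highest and 12 lowest folds, up to 4 genes of each of 27 lists, the 10 most enriched genes, the markers, the stem cell genes, Kit, Ptprc and Cd34. Further genes, such as Blnk, Mef2c, Socs1, Socs3, Cish, Pim2, Bcl3, Prtn3, Mpo, Rag2, Tcf7, Irf8, Xist and Myl10, were chosen after their values were seen. The members and lists were chosen with earlier results of these data known.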

Additional observations from a re-analysis of the deposited data

Results flagged for a closer look

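Of 7057 genes averaging 20 CPM or more, 4 were over 1.5-fold different in opposite directions in lymphoid-primed cells and in all other cells. The difference between populations was not tested, since each group is 1 sample.

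Myl10, a myosin light chain gene, had a log2 fold of -1.77 in lymphoid-primed cells, at 74.8 CPM in the tumor environment and 256 CPM in the PBS control, against 0.62 in all other cells. It had a UMI in 23.6% of lymphoid-primed cells (18.6 to 29.2) in the tumor environment and 40.6% (35.9 to 45.4) in the PBS control at equal depth, and its log2 fold was -2.24 within the core of the map patch. In the populations most alike it was also lower, at -0.93 in Flt3 cells without Dntt and -1.34 in Dntt and Flt3 cells with 3 or more stem cell genes. Cmah, the sialic acid hydroxylase gene enriched in lymphoid-primed cells, had a log2 fold of 0.60, at 40.8 CPM in the tumor environment and 27.02 CPM in the PBS control, against -0.63 in all other cells. It was at 0.31 in Flt3 cells without Dntt and 1.39 in Dntt and Flt3 cells with 3 or more stem cell genes, and at 0.38 (-0.01 to 0.78) within the core of the patch, short of 1.5-fold. Hbb-bs had a log2 fold of -4.73 against 4.04 in all other cells, and Hbb-bt one of -0.95 against 3.83. Hbb-bt reversed to 0.90 when every cell was thinned before the rule and to 0.55 without cells over 1% globin or Igkc, and was at 0.88 in Flt3 cells without Dntt and 1.87 in Dntt and Flt3 cells with 3 or more stem cell genes. In the PBS control, 90.1% of the Hbb-bs UMIs and 71.7% of the Hbb-bt UMIs of lymphoid-primed cells lay in 5 cells.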

How the results depend on the processing

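The share of lymphoid-primed cells was lower in the tumor environment under all 13 alternatives. Its ratio to the PBS control was 0.523 with fewer than 2 stem cell genes allowed, 0.821 with no limit on them and 0.546 without cells with 3 or more erythroid genes. The 258 genes over 1.5-fold higher and 267 lower became 1269 and 1810 with no filter on low counts, 544 and 459 when every cell was thinned before the rule, 700 and 714 when the members were thinned, and 550 and 471 within the densest patch of the map. Those settings add low genes or leave fewer UMIs.

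Of 81 named or added genes past 1.5-fold, 77 kept their direction under the 19 alternatives (18 for mitochondrial genes) and 46 stayed past 1.5-fold in each, while 35 fell short in at least 1. Ifitm3 and Ifngr2 fell short in 7, Cmah and Lax1 in 6, Itgal and Jak3 in 5, Icam2 in 4, Notch1, Il4ra, Ly6e and Zfp36 in 3, Tap2 in 2, and Junb, Clec2i, Cdkn1a and Cd53 in 1. Tcf7 reversed to -1.27 among cells with at least 10000 UMIs and had 0 UMIs in the tumor environment without the small separate group. Hbb-bt reversed to 0.90 when every cell was thinned before the rule and to 0.55 without cells over 1% globin or Igkc, and within the densest patch Ccl5 was at -0.026 and Cish at -0.089. Il7r ranged from 0.54 to 2.18, Mpo from -1.78 to -0.48 and Elane from -3.39 to -0.53; the cause was not tested. Alternatives without erythroid cells, without shared barcodes, without the small separate group on the map, within its patch and with equal cells per Dntt band were chosen after seeing the data. No paired analysis was possible because the cells carry no replicate number; for the same reason the edgeR and DESeq2 tests and leaving out each sample were not run. Genes under about 10 CPM are limited by depth.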
